A study of Danio rerio with 4 samples.

Results

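The H3K27ac landscape described here is that of control nonmyocyte cells (nonCMs) from the injury area of regenerating adult zebrafish hearts, 7 days after the ventricular apex was resected. Its members are sites, each a stretch of the genome in which peaks of control replicate 1 and control replicate 2 overlapped by at least 1 bp. Merging both control peak lists gave 42149 sites, of which 21413 (50.8%) held peaks of both lists and are the subject of the text, out of 51678 merged sites over the 4 lists of the series. NonCMs are a mixture of epicardial cells, fibroblasts, endothelial cells, macrophages and blood cells, so a site can come from any of them. In the study's methods, control fish of the inducible lines carried both transgenes, *tcf21:Cre-ERT2* and *ubb:loxp-dsRed-loxp-Flag-dnAP-1*, and received the ethanol vehicle. The labels of these libraries read CTRL, with WT in brackets. They do not settle whether the fish were wild type or vehicle-treated carriers of both transgenes. The *tcf21* promoter drives the recombinase in epicardial cells and fibroblasts, and the dominant-negative AP-1 stays silent until the floxed dsRed is removed. The study calls the libraries biological duplicates, and the labels do not say how many hearts went into each. The other 2 libraries of the series, from *Epi/FB:dnAP-1* hearts (the label writes FB:dnAP-1), were set against no control value here.

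Acetylation of H3K27 is placed by the coactivators p300 and CBP and removed by histone deacetylases, and it marks active promoters and active enhancers. Where acetylated enhancers crowd together over long stretches, they are often described as stretch enhancers or super-enhancers, which in many tissues lie at genes of cell identity. CUT&Tag reads the mark by tethering a transposase to antibody-bound chromatin, so that DNA near the acetylated histone is cut, tagged and sequenced. The mark is known in the zebrafish heart as a label of enhancers that become active after injury.

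The control lists were of like size, with 32638 peaks in replicate 1 and 33076 in replicate 2. Their peaks had median widths of 3156 and 2671 bp and covered 118 and 102 Mb. The lists give 2 values for a peak: its total signal, which is scaled coverage summed over its bases, and its maximum coverage. Every maximum was a whole multiple of 1.26 in replicate 1 and of 1.38 in replicate 2, and the median peak reached 16 such steps in replicate 1 and 14 in replicate 2. Summed total signal was 1024659519 in replicate 1 and 856817974 in replicate 2. The weakest peak had total signal of 12993 in replicate 1 and 10480 in replicate 2, against medians of 19329 and 15938. The study's methods set a numeric threshold for calling peaks. Its part in list size, site density and site width was not tested. Since the lists hold no read numbers, the depth is unknown and no counting interval is given. Signal is therefore given as a share of the signal that a list has in all 21413 sites.

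Sites held by both lists carried most of the signal. Peaks in shared sites made up 67.9% of the peaks of replicate 1 and 69.0% of those of replicate 2, and shared sites held 82.8% and 84.0% of the total signal of these lists. The lists overlapped almost fully among strong peaks and little among weak ones. Of the strongest decile of peaks, 99.6% in replicate 1 and 99.8% in replicate 2 lay in a shared site. In the fifth decile these shares were 72.0% and 76.8%, and in the weakest decile 34.8% and 33.6%. The sites in both lists thus leave out mostly weak peaks. Strong peaks are also wider, and a wider peak overlaps another more easily. Most sites were simple, and 19641 of them (91.7%) were formed by 1 peak of each list. The share of merged sites found in both lists was much the same along the genome, between 47.2% on chromosome 9 and 54.1% on chromosome 1.

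**Figure D1:**
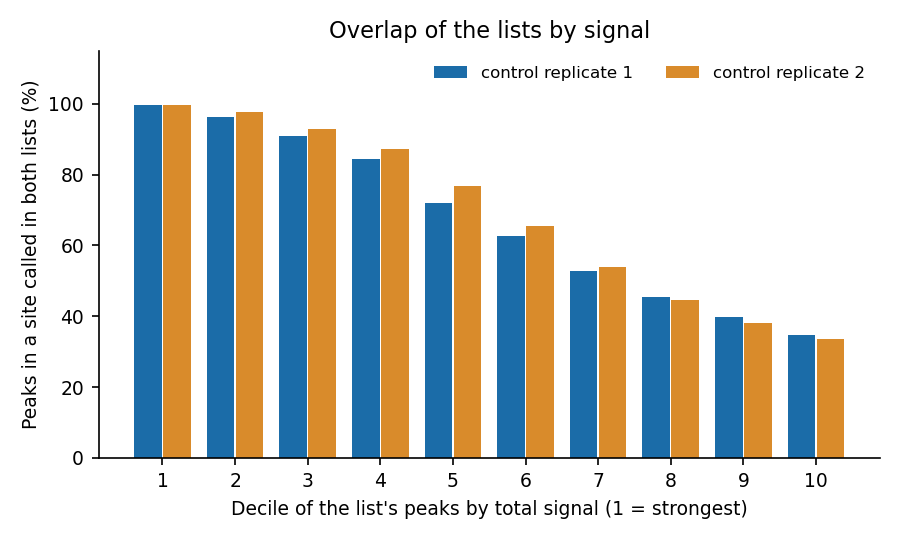
Share of peaks (%, vertical axis) that lie in a site held by both control lists, for each decile of a list's peaks ordered by total signal (horizontal axis, 1 the strongest). The bars of both replicates fall together, from over 99% in the strongest decile to 34.8% in replicate 1 and 33.6% in replicate 2 in the weakest.

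Within shared sites the replicates gave broadly similar levels, with most scatter at middle ranks. The SD of the log2 ratio of the replicates' signal shares was 0.30 in the strongest decile of sites, 0.58 in the sixth and 0.19 in the weakest. Across the 21413 sites, log2 total signal correlated with a Pearson r of 0.865 and total signal with a Spearman rho of 0.753. For the maximum, r was 0.889 and rho 0.879. These are descriptions across sites of the same 2 libraries, and sites are not independent replicates. Of the 2142 sites in the top 10% of replicate 1 by total signal, 1697 (79.2%) were also in the top 10% of replicate 2. Of the 22 in the top 0.1%, 21 were shared. The positions of the maxima were close: the midpoints of the regions of maximum signal lay a median of 108 bp apart, with 48.3% of sites within 100 bp and 86.9% within 1000 bp. The strongest decile of sites had a median distance of 80.2 bp and the weakest decile 168 bp.

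Of the shared sites, 19327 (90.3%) lay on chromosomes 1 to 25, 2085 (9.74%) on unplaced scaffolds and 1 on the mitochondrial genome. Chromosomes held 89.6% of the signal in replicate 1 and 89.3% in replicate 2, and scaffolds 9.74% and 10.2%. Mitochondrial DNA carries no histones, so coverage there is not a measure of the mark. The mitochondrial site ran over positions 14 to 16595 of that genome, ranked ninth of all sites by signal and held 0.643% of the signal in replicate 1 and 0.427% in replicate 2. Its profile was flat, with a maximum over mean signal per base of 1.81 against a median of 3.12 over all sites.

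With the length of each sequence taken as the end of its last control peak, there were 13.8 sites per Mb over 1555 Mb of sequence and 14.4 per Mb over the 1345 Mb of chromosomes. Sites covered 6.53% of the chromosomes, and 4.11% was covered by peaks of both lists base for base. Density varied little between chromosomes. Chromosome 4 was the densest, with 16.8 sites per Mb, followed by chromosome 3 with 16.7, chromosome 19 with 16.5 and chromosome 2 with 16.3. Chromosome 9 was the sparsest, with 12.4, next to chromosome 14 with 12.6, and the densest chromosome exceeded the sparsest 1.36-fold. Peaks per Mb of the replicates differed by a median of 0.640 between the lists over the 25 chromosomes and by at most 1.63. Chromosome 4 led in each list, with 26.0 peaks per Mb in replicate 1 and 27.7 in replicate 2. The low end was less settled, as chromosome 1 was the sparsest in replicate 1 (19.0 peaks per Mb) and chromosome 14 in replicate 2 (18.8). The order of neighbouring chromosomes thus cannot be read from these lists.

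Chromosome 4 also differed in the form of its sites. Their median width was 4342 bp, the highest of any chromosome. Of its 1315 sites, 116 were wider than 10 kb, against 930 of all 21413 (4.34%). Chromosomes 15 and 17 had 51 of 737 and 43 of 721. Sites covered 9.24% of chromosome 4, against 5.28% of chromosome 9. By bins of 10 Mb from the start of chromosome 4, median width was 3611, 3980, 4416, 4883, 4708, 4905, 4738 and 3959 bp. It was thus highest in the middle bins and lower at both ends. Its share of the signal followed its number of sites, as the ratio of the signal share to the site share was 0.987. Chromosomes 10 and 8 had the highest ratios, 1.46 and 1.29, and chromosome 9 the lowest, 0.761. A few strong sites weighed in the high ratios. On chromosome 10, with 3.98% of the signal, chr10:16783650-16812856, chr10:16815399-16846284 and chr10:12094559-12126882 held 0.666%, 0.563% and 0.409%. On chromosome 8, with 4.81%, chr8:34765583-34814357 held 0.711% and chr8:35028557-35060653 held 0.371%. Ratios without such sites were not computed.

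**Figure D2:**
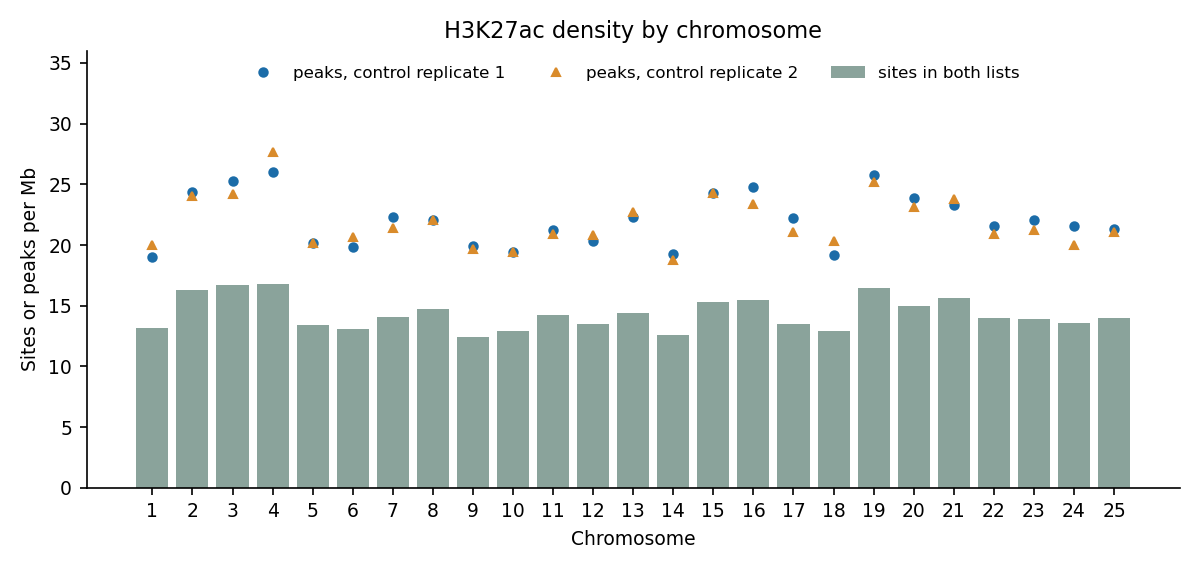
Sites held by both control lists per Mb (bars) and peaks per Mb in control replicate 1 (circles) and replicate 2 (triangles) for each chromosome. Bars run from 12.4 on chromosome 9 to 16.8 on chromosome 4, and the 2 symbols of a chromosome lie within 1.63 of each other.

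Within chromosomes the variation was much larger. Over 1336 whole windows of 1 Mb, the median window held 14 sites, the 5th and 95th percentiles were 3 and 29, and 9 windows held none. The densest was the first Mb of chromosome 1, with 48 sites. Of the 20 densest windows, 11 were the first Mb of a chromosome. Partial windows at the far ends were left out, so the start and the end of a chromosome were not counted alike. The last whole windows of chromosome 15, with 41 sites, and of chromosome 11, with 40, were also among the 20. Within 1 Mb of a chromosome end there were 31.1 sites per Mb, against 13.7 farther in. This held in each list, with 47.2 against 21.2 peaks per Mb in replicate 1 and 45.9 against 21.1 in replicate 2. Away from the ends, dense windows lay at 25 to 26 Mb of chromosome 16 (46 sites) and 38 to 39 Mb of chromosome 7 (39 sites).

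Neighbouring sites were unevenly spaced. The median gap was 22.8 kb over all sequences and 22.6 kb on chromosomes, where the quartiles were 6.42 and 69.6 kb. The mean gap on chromosomes was 65.1 kb with an SD of 119 kb over 19302 gaps, a coefficient of variation of 1.83. Each list alone gave a coefficient of 1.85. At the short end, 1245 gaps (6.45%) were at most 1 kb long and 37.0% were within the gap of about 13 kb used for stitching. At the long end, 3495 gaps (18.1%) exceeded 100 kb, and together they took up 869 Mb, 64.6% of the chromosomes. The longest 10% of gaps held 53.1% of all gap length. Stretches with sites close together thus alternated with wide stretches with few.

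The 3 longest gaps were chr14:18202502-20086676 (1.88 Mb), chr12:39460751-41342048 (1.88 Mb) and chr14:41984163-43584657 (1.60 Mb). They were not empty in each list. The first held 1 peak of replicate 1 and 3 of replicate 2, the second 3 and 1, and the third 3 of each, none of which overlapped between the lists. The first of these gaps ended at the strongest site of the landscape.

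**Figure D3:**
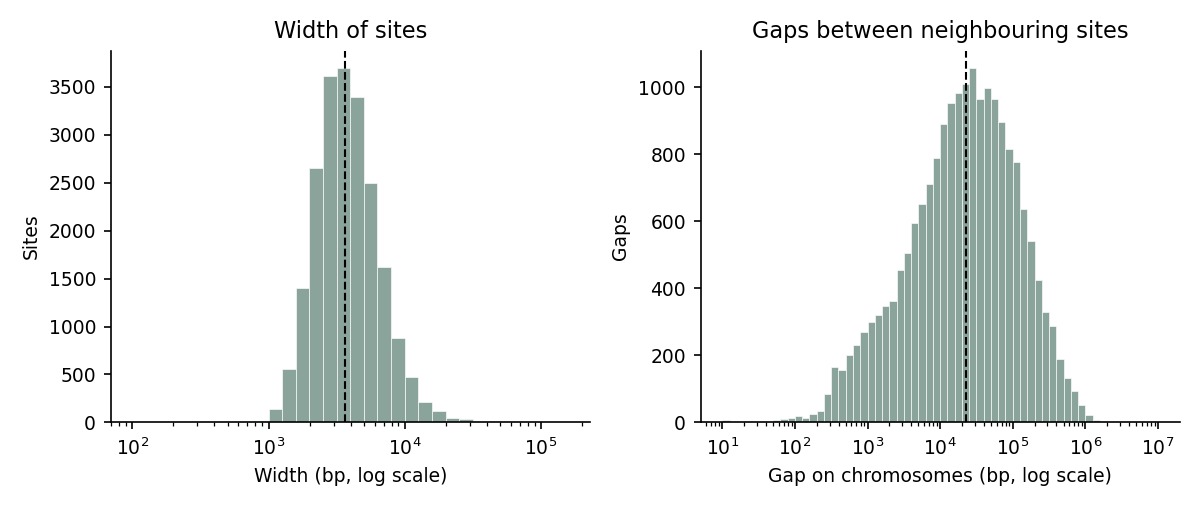
Number of sites by width (left, log scale in bp) and number of gaps between neighbouring sites on chromosomes by length (right, log scale in bp), with the median as a dashed line. Widths lie in a narrow range around 3645 bp, while gaps spread over several orders of magnitude around 22.6 kb.

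Sites were a few kilobases wide. Median width was 3645 bp, with quartiles of 2617 and 5260 bp and a 95th percentile of 9531 bp. The width of a merged site spans all its peaks, so it exceeds the 2234 bp that both lists covered in the median site. Only 28 sites were narrower than 1000 bp, and the narrowest had 231 bp. Wide sites were few and held much of the signal. The 930 sites wider than 10 kb (4.34%) held 27.4% of the signal on 14.9% of the length of all sites, and the 126 wider than 20 kb (0.588%) held 16.3% on 4.18% of that length. Total signal sums over bases and so grows with width, and the Spearman rho of width and signal share was 0.535 across sites.

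The widest site was chr24:12445187-12545375, which spanned 100 kb. It held 0.312% of the signal in replicate 1 and 0.374% in replicate 2, with maxima of 73.08 and 75.90. Its maximum over mean signal per base, averaged over the lists, was 2.78, a little under the median of 3.12 over all sites. The second widest, chr25:26302868-26391524, spanned 88.7 kb with a mean of 15.9 in replicate 1 and 15.8 in replicate 2. Wide sites differed in form. Over the 10 sites wider than 50 kb, the maximum over mean ran from 2.78 to 13.3. At chr7:64595672-64651828, 56.2 kb wide, maxima of 1084.86 in replicate 1 and 819.72 in replicate 2 stood on means of 78.6 and 64.0.

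Signal was concentrated in few sites. The top 10% of sites (2142) held 41.5% of the signal, the top 1% (215) held 23.5% and the top 0.1% (22) held 11.6%. The replicates gave nearly the same shares, 41.5% and 41.9% for the top 10% and 11.7% and 11.5% for the top 0.1%. The strongest 3596 sites (16.8%) held 50% of the signal, and the Gini coefficient, which is 0 for equal sites and 1 when a single site has everything, was 0.454. Part of this concentration was width, as the top 10% covered 21.9% of the length of all sites and had a median width of 8142 bp. By summed maxima in place of total signal, the top 10% held 26.9%. The weakest decile held 3.61% of the signal, with a median width of 2748 bp. Maximum over mean was also higher in strong sites, with a median of 4.31 in the strongest decile and 2.64 in the weakest. As strong sites were wider, this ratio does not give sharpness apart from width.

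**Figure D4:**
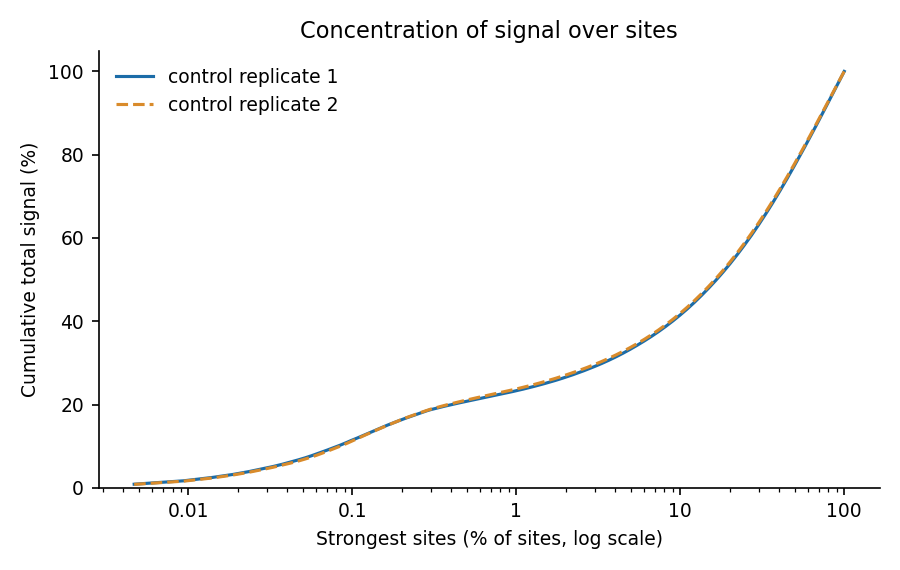
Cumulative share of total signal (%, vertical axis) held by the strongest sites (% of all sites, log scale), for control replicates 1 and 2. The curves lie on each other and pass 23.3% in replicate 1 and 23.8% in replicate 2 at the top 1% of sites.

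The strongest site had 298 times the signal share of the median site. Of the 22 strongest sites, 17 lay on chromosomes, 4 on scaffolds and 1 was the mitochondrial one. Their median width was 33.1 kb, and their median maximum was 757.89 in replicate 1 and 635.49 in replicate 2, 27.3 and 25.6 times the median over all sites. Both lists placed their summits within 10 bp of each other at 16 of the 22. At the others the summits were between 132 and 18976 bp apart. The ratio of the replicates' signal shares had a median of 1.01 and ran from 0.832 to 1.51, the highest being the mitochondrial site.

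The strongest site was chr14:20086677-20115549, 28.9 kb wide, with 0.871% of the signal in replicate 1 and 0.832% in replicate 2. Its maximum was 1081.08 in replicate 1 and 939.78 in replicate 2, with the summit at position 20107037 in both. Next on a chromosome was chr7:53010715-53038511 with 0.816% and 0.773%, whose maxima of 1874.88 and 1476.60 also shared a summit base. The third on a chromosome, chr8:34765583-34814357, had 0.716% in replicate 1 and 0.707% in replicate 2. These 3 sites together held 2.40% of the signal in replicate 1 and 2.31% in replicate 2.

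On chromosome 10, chr10:16783650-16812856 (0.680% in replicate 1 and 0.652% in replicate 2) and chr10:16815399-16846284 (0.565% and 0.562%) lay side by side. The other sites among the 10 strongest on chromosomes were chr11:15106687-15152249, chr16:25927138-25951548, chr7:64595672-64651828, chr2:19445959-19487444 and chr3:55339138-55373034. Their shares lay between 0.481% and 0.557% in replicate 1 and between 0.480% and 0.631% in replicate 2. At chr16:25927138-25951548 the summits of the replicates were 6693 bp apart, the largest distance among these 10, and at the others they were at most 403 bp apart.

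**Figure D5:**
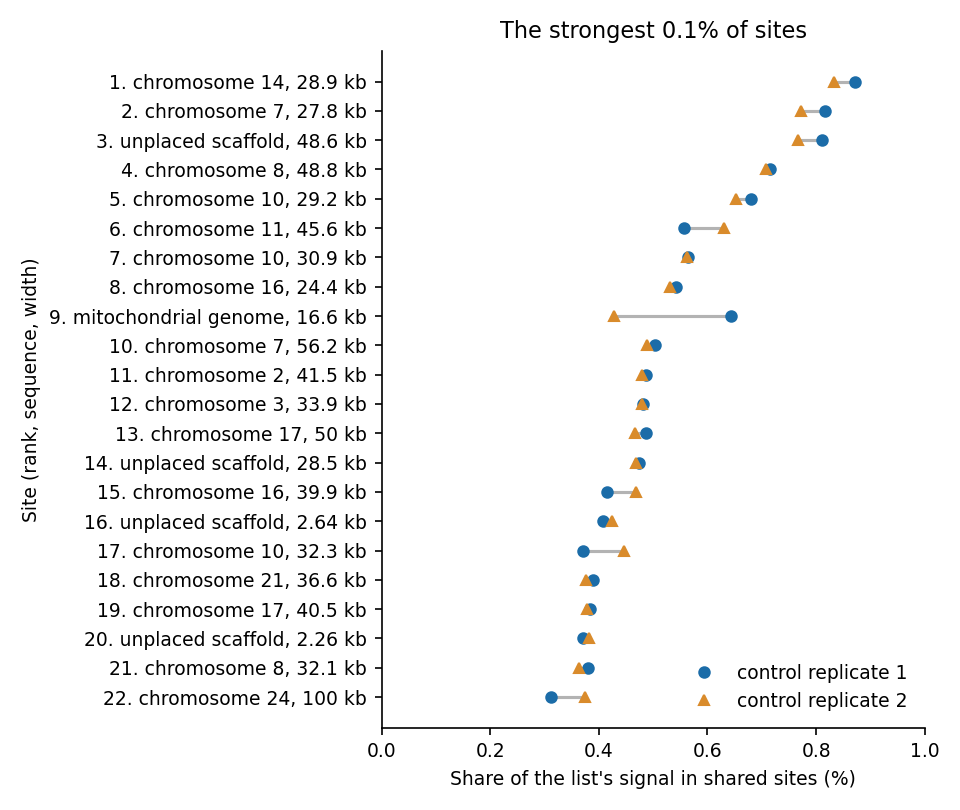
Share of a list's signal in shared sites (%, horizontal axis) for the 22 strongest sites, listed by rank with their sequence and width, in control replicate 1 (circles) and replicate 2 (triangles). The points of a site lie close together at most sites and farthest apart at the mitochondrial site, with 0.643% in replicate 1 and 0.427% in replicate 2.

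The order by maximum differed in part from the order by total signal. The 2 highest maxima belonged to sites of 2.64 and 2.26 kb on unplaced scaffolds, with 2473.38 and 2440.62 in replicate 1 and 2181.78 and 2151.42 in replicate 2. The third highest was that of chr7:53010715-53038511, given above. On chromosome 17, chr17:53384663-53384904, noticed once the maxima were known, reached 1336.86 in replicate 1 and 1330.32 in replicate 2 within only 242 bp. Very high coverage thus occurred in very narrow and in very wide sites. Whether reads that map to several places contribute at these sites was not tested, since the lists carry no mapping quality.

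Stitching sites up to about 13 kb apart gave 13896 regions, of which 9696 were single sites and 4200 were clusters of at least 2. Clusters held 11717 sites (54.7%) and 59.0% of the signal in replicate 1 and 58.9% in replicate 2. Their median length was 17.2 kb, of which sites filled a median of 61.5%. Most were small, with 2541 clusters of 2 sites (60.5%), 889 of 3 and 370 of 4. The 400 clusters of 5 or more sites held 11.6% of sites and 12.9% of the signal, close to their share of sites. Sites in clusters were somewhat wider than single ones, with a median of 3920 against 3362 bp. Their median total signal was 25828 against 22807 in replicate 1 and 21235 against 19506 in replicate 2.

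The clusters with most sites were not those with most signal. The 3 clusters with most sites were chr6:81581-275283 (18 sites), chr16:36193681-36485017 (16 sites, 291 kb, the longest) and chr10:151652-284104 (16 sites), which ranked 35th, 18th and 45th by signal. The cluster on chromosome 6 had 0.0985% of the signal in replicate 1 and 0.0990% in replicate 2. The strongest cluster, chr10:16783650-16846284, consisted of the adjoining pair of strong sites above and held 1.24% in replicate 1 and 1.21% in replicate 2. It was followed by chr7:52994548-53038511 (3 sites), chr2:19420955-19492842 (3 sites), chr24:12401422-12566070 (4 sites) and chr16:25920418-25951548 (2 sites), with shares between 0.653% and 0.859% in replicate 1 and between 0.647% and 0.813% in replicate 2. In each of these 5, sites filled at least 84.9% of the length, against 67.7% in the cluster of 18 on chromosome 6. Of the 27 clusters of 10 or more sites, 10 lay within 1 Mb of a chromosome end. Of the 19327 sites on chromosomes, 1554 lay there, and the share of all clusters there was not computed. None of the 27 lay on a scaffold, where 2085 sites were spread over 922 sequences. The part of sequence length in this was not tested.

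Ranking all stitched regions by signal share and cutting where a line of slope 1 touches the scaled curve, as is done to define super-enhancers, set apart 201 regions (1.45%) with 27.5% of the signal. Of these, 31 were single sites, and their median length was 60.7 kb. The ranking also included sites on scaffolds and the mitochondrial site, whose coverage is not a measure of the mark. Peaks at promoters were not left out and no input was subtracted. The number thus describes the shape of the curve and is no count of super-enhancers.

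Genes were placed on the landscape through the study's list of open chromatin regions (OCRs) that are active in epicardial cells and fibroblasts and also overlap a known candidate regeneration enhancer (TREE), of which 1999 rows with 1544 genes on 23 chromosomes were used. This is a part of that list, which is itself a part of the OCRs of these cells, and chromosomes 8 and 9 were not covered. The list names no build, and its first set of coordinates was taken as GRCz11 because 249 OCRs fell in a site by them and 166 by the second set. As this overlap chose the coordinates, it is no independent measure of how often OCRs fall in sites. The study's captions name GRCz11 as the assembly for its plots of OCRs around gene starts. Sites covered 6.58% of these chromosomes. The gene beside an OCR is the one the study assigned, so a site over an OCR is not shown to act on that gene.

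Few sites held an OCR of this list, both among the strongest and over all ranks. With 1999 OCRs in the rows used, most of the 17830 sites could not hold one, so these shares reflect list size too. Of the 100 strongest sites, 69 lay on its chromosomes and 1 of them (1.45%) held an OCR. Over all ranks 247 of 17830 sites (1.39%) did, and 1 site is too few to compare these shares. Of the 25 strongest clusters, 18 lay on these chromosomes and none held an OCR, against 190 of 3643 clusters (5.22%) over all ranks, and 18 are too few to read a difference from. The site with an OCR was chr15:3716923-3731300, 14378 bp wide and ranked 74th, at an OCR assigned to *clrn1*, which encodes the membrane protein clarin 1 of sensory cells. Its total signal was 475289 in replicate 1 and 461947 in replicate 2, with a maximum of 102.1 in each list. In the strongest 10% of sites on these chromosomes, 39 of 1878 (2.08%) held an OCR. Sites with an OCR were wider, with a median of 4871 bp, and a wider site overlaps an OCR more easily.

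Among genes noticed only once the ranks were known, *qkia*, a homolog of the RNA-binding protein Quaking, had its OCR in a site of 37450 bp ranked 108th. Its total signal was 290031 in replicate 1 and 276992 in replicate 2. At *sox4b*, a SoxC transcription factor gene, the site was 28474 bp wide and ranked 124th, with total signal of 259930 and 219480. Both lay in clusters, of 6 sites over 104 kb at *qkia* and 7 sites over 103 kb at *sox4b*. OCRs in clusters of 10 or more sites belonged to *mpzl1l* and *emsy* (the cluster of 16 on chromosome 10), *irf2bp2a* (12 sites), *gadd45ba*, *mir212*, *trabd2a* and *june* (10 sites each). Of these, *june* encodes a Jun protein, a subunit of the AP-1 factor, and *gadd45ba* a stress response protein. The OCR of *trabd2a* lay between sites of its cluster.

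Of 84 genes listed as markers of nonCM types and of cardiomyocytes and as members of the Tead, Stat, NF-κB and AP-1 pathways, 19 stood in the OCR rows used, with 24 OCRs. Of these OCRs, 5, of 5 genes, fell in a site, against 249 of all 1999, and nothing is read from so few. None of the 12 AP-1 genes listed stood in the rows, while *june*, a Jun gene outside that list, did. Of the 10 genes in the epicardial and fibroblast list, *aldh1a2*, *twist1b*, *mdka* and *nppc* had an OCR in a site. The study treats *nppc* as a marker of activated endocardial cells. It also uses Aldh1a2 and a reporter with the *lepb* enhancer to label endocardial cells at the injury. The place of *nppc*, *aldh1a2* and *lepb* in that list is thus loose. The only macrophage gene in the rows, *irf8*, had one too. None did for *cxcl12a*, the only gene of the endothelial list in the rows, or for *hand2*. Nor did any for the genes of the Tead pathway (*tead1a*, *tead3b*, *ccn2a* and *ccn2b*) and of the Stat and NF-κB pathways (*socs3b* and *nfkb1*). These counts are for single OCRs and do not say that the genes lacked acetylation elsewhere. With 1 gene each in the rows for endothelial cells, macrophages and cardiomyocytes, the cell types in the samples cannot be checked by them.

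Of the 5 sites at marker genes, all but that at *mdka* ranked in the weaker part of the 21413 sites. They ranked 13829th at *aldh1a2*, 14117th at *nppc*, 14389th at *irf8* and 19610th at *twist1b*. The sites at *aldh1a2*, *nppc* and *irf8* fell in the seventh decile. There the SD of the log2 ratio of the replicates' shares was 0.50, so these ranks are approximate. Percentiles given below are among all peaks of a list, including the mostly weak peaks outside shared sites. The highest in rank was at *mdka*, which encodes the growth factor midkine, at chr7:39168000-39171702. It was 3703 bp wide and ranked 5871st, with total signal of 34228 in replicate 1 and 29965 in replicate 2 and maxima of 20.16 and 20.70. Of the peaks of replicate 1, 80.8% had no more total signal than this site, its percentile in the list, and of those of replicate 2, 82.8%. The other 2 OCRs of *mdka* lay 2.79 and 29.1 kb from the nearest site.

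At *aldh1a2*, which encodes the enzyme that makes retinoic acid and is induced in the injured epicardium and endocardium, 1 of 2 OCRs fell in a site. The site, chr7:30339884-30344211, was 4328 bp wide and had total signal of 19922 in replicate 1 and 17326 in replicate 2, at percentiles 52.5 and 56.3. It formed a cluster of 7.51 kb with a second site.

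At *nppc*, which encodes C-type natriuretic peptide, the site chr22:38577361-38581299 had total signal of 15780 in replicate 1 and 20307 in replicate 2. Its percentile was 29.6 in the first list and 66.0 in the second, so the replicates placed it differently. It was 1 of 4 sites in a cluster of 31.5 kb. At *irf8*, a transcription factor gene of macrophage development, the site chr18:30636683-30643154 also differed, with 15152 in replicate 1 and 20355 in replicate 2, percentiles 24.3 and 66.1.

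The weakest of the 5 was at *twist1b*, a gene for a mesenchymal transcription factor. The site, chr16:19713406-19715870, was 2465 bp wide and ranked 19610th, with total signal of 14089 in replicate 1 and 13496 in replicate 2, percentiles 13.6 and 35.2. For its paralog *twist1a* the OCR lay 103 kb from the nearest site, and for *pdgfra* and *pdgfab* 170 and 193 kb.

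The remaining OCRs of marker genes lay closer to sites. Distances were 0.478 kb at *dcn*, the gene of the matrix proteoglycan decorin, 0.570 and 1.20 kb at *hand2*, 3.70 kb at *wt1b*, a gene of the embryonic and injured epicardium, and 4.44 kb at *nfkb1*. They were 6.33 kb at *ccn2a*, 6.90 kb at *socs3b*, 10.3 kb at *tead3b*, 12.0 kb at *tead1a*, 15.4 kb at *lepb*, 15.7 and 45.2 kb at *ccn2b*, and 47.0 kb at *cxcl12a*. At some of these OCRs 1 list alone had a peak, replicate 2 at *ccn2a* and replicate 1 at *lepb* and at 1 OCR of *mdka*. Such loci are not among the sites described here.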

How the data were processed

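H3K27ac CUT&Tag peak lists of 2 control libraries of nonCMs at 7 days after injury were used, with groups and replicate numbers from the sample labels. Before deposit, the authors used cutadapt 2.7 for adaptors, Bowtie2 2.2.5 for alignment to GRCz11, SAMtools 1.9 against unmapped reads and Picard against duplicates, scaled the coverage of each library by a ChIPseqSpikeFree factor and called peaks per library. The methods name MACS2 and SEACR for this step, and the lists have the 6 columns of SEACR. The deposited values are signal, the scaled coverage summed over a peak and its maximum. Scaling cancels in shares of a list.

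Peaks sharing at least 1 bp were merged, and sites with peaks of both lists were kept. Gaps, widths, signal shares and clusters (gap up to 12.5 kb) were computed with Python 3.11.15, numpy and pandas on GRCz11 positions counted from 1. The merging and stitching were tested on simulated lists. No test was run, as no groups were compared. Loci named were the 10 strongest sites on chromosomes, 5 strongest clusters, 3 clusters with most sites, 3 longest gaps, genes whose OCR fell in the 100 strongest sites or 25 strongest clusters, and marker genes in the OCR list. Other named loci and genes (wide sites, a narrow site of high maximum, OCRs at lower ranks or in clusters of 10 or more sites) were chosen after their values were seen. Members and lists were chosen with earlier results of these data known. No genome or annotation of GRCz11 was used here. The IgG libraries of the protocol were not analysed here.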

Additional observations from a re-analysis of the deposited data

How the results depend on the processing

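With only 2 libraries, a value was taken as moved when it differed from the reported one by more than the SD between the lists, or by over 1.5 times for a number of sites or clusters. Taking the peaks of 1 library alone gave 32638 to 33076 peaks for sites, 21.0 to 21.3 per Mb, a fold between chromosomes of 1.37 to 1.47, median gaps of 15.1 to 15.4 kb, median widths of 2671 to 3156 bp, 39.1% to 39.3% of signal in the top 10%, 6577 to 6723 clusters and 63.8% to 64.1% of peaks in clusters. With the top 50% of peaks of each list there were 11707 sites, 7.53 per Mb, a fold of 1.47, a median gap of 43.3 kb, a median width of 4238 bp, 43.7% of signal in the top 10%, 1865 clusters and 39.5% of sites in them. When peaks of each list had to cover at least 50% of a site, there were 11.8 sites per Mb, a gap of 29.0 kb, 43.6% in the top 10% and 48.8% of sites in clusters. Merging peaks within 500 bp gave 13.5 per Mb, 23.7 kb, 41.8% and 53.2%, and chromosomes 1 to 25 only gave 14.4 per Mb, 22.6 kb, 40.0% and 57.2%. The top 10% held 26.9% of summed maxima and 25.0% of summed means per base. Without the 22 strongest sites, a setting added after the data were seen, the top 10% held 34.0% of total signal. Counting only sequence covered in both lists, median width was 2234 bp. Stitching gaps of 5 and 25 kb put 34.8% and 70.6% of sites in clusters. Equal numbers of peaks and other sequence ends moved no value past these limits. The share of sites in clusters thus ran between 34.8% and 70.6% over these settings, and the fold between chromosomes between 1.35 and 1.47. No paired analysis was possible because no groups were compared. The lists do not hold the read depth, and its part in which weak sites reach both lists was not tested.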
